A study of Mus musculus with 3 samples.

Results

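The 29 genes described here encode most of the enzymes that build cholesterol and fatty acids, together with the proteins that regulate those enzymes. They were picked by gene symbol, as genes of these pathways, from a table of 24054 genes measured by RNA sequencing in mouse primary cortical neurons. Of the 29 genes, 7 belong to the mevalonate pathway, 11 to the steps from squalene to cholesterol, 6 to sterol-regulatory element-binding protein (SREBP) control and sterol transport, and 5 to fatty acid synthesis. The neurons came from C57BL/6 mice at embryonic day 17 and were cultured for 7 days. In the control group the cells stayed at 21% oxygen. Both other cultures spent 7 hours at 0.2% oxygen, either with no hormone added (hypoxia) or with triiodothyronine (T3), the active form of thyroid hormone, at 5 nM (hypoxia with T3). The hormone content of the control medium is not given in the labels. Each of the 3 groups had 1 library, so the spread between cultures could not be measured, no difference below was tested against it, and it cannot be judged whether the groups overlap.

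Cells make cholesterol from acetyl-CoA through mevalonate, isoprenoid diphosphates, squalene and lanosterol. Several of the late steps, and the desaturation of fatty acids, consume molecular oxygen. SREBP transcription factors switch the pathway on: when membrane sterols are low, the escort protein Scap carries SREBP from the endoplasmic reticulum to the Golgi for cleavage, and when sterols are high the Insig proteins hold Scap back. Developing neurons make cholesterol for growing membranes, and in the mature brain much of it comes from astrocytes. In liver, thyroid hormone is a well known inducer of genes of fatty acid synthesis.

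Upstream sequences of 3 genes are shown because these genes stood for the extremes of the data: Hmgcs1 was among the most abundant of the genes per length, Insig1 had the highest ratio of hypoxia to control, and Insig2 was among the lowest. The sequences are from RefSeq promoter windows on GRCm38.p6 (mm10), written 5′ to 3′ on the strand of the gene, and contain no annotated exon. Capitals mark matches, on either strand, to the sterol regulatory element TCACNCCAC bound by SREBP, to CCAAT (the NF-Y box), to the E-box CACGTG, and to the hypoxia response element core ACGTG or GCGTG, which can overlap the E-box.
Hmgcs1 (chr13:119690101-119690350, plus strand): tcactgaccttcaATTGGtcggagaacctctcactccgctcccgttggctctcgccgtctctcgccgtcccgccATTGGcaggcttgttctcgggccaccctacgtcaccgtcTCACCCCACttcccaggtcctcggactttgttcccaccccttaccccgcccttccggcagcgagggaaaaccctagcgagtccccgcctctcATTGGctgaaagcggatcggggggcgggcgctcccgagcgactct
Insig1 (chr5:28071162-28071362, plus strand): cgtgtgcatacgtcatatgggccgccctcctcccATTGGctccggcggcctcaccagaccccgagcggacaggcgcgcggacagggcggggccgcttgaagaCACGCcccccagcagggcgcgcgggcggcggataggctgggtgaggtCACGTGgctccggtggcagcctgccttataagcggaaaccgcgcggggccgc
Insig2 (chr1:121332590-121332839, minus strand): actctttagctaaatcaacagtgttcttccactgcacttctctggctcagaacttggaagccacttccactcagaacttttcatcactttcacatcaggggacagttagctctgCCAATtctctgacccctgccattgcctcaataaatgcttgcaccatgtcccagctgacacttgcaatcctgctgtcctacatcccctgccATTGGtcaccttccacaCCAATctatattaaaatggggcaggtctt
The Hmgcs1 stretch held 1 sterol regulatory element and 3 CCAAT boxes. The Insig1 stretch held 1 CCAAT box, 1 E-box and a further response element core outside the E-box. The Insig2 stretch held 3 CCAAT boxes and none of the other motifs. It comes from 1 of several Insig2 windows. Those beginning at 121327975 and 121327629 held 3 and 1 response element cores and none of the other motifs, so Insig2 does not lack the core.

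RefSeq windows of 300 bases (250 before and 50 after a start), matched by symbol, were counted for 23 of the 29 genes, 31 windows in all. Fdps, Fdft1, Sqle, Scd1 and Scd2 had no window, so the motifs near their starts were not counted. Windows on chromosome 18, where Stard4 lies, were left out for the 29 genes but kept in the count over all genes. The CCAAT letters were found in 21 of the 31 windows (67.7%) and in 37.4% of 32851 windows over all genes. The E-box was in 6 windows (19.4%, against 7.15% of all). The response element core was in 18 (58.1%, against 43.8%), and the sterol regulatory element as spelled above in 1, that of Hmgcs1 (3.23%, against 1.24%). Overlapping windows of the same gene share bases, so the windows are not independent, and a match of letters says nothing of binding in these cells.

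Values are normalised read counts in CPM, reads per unit of sequencing depth, scaled to library size by the authors. The reads recovered from these values numbered 18081904 (control), 17118865 (hypoxia) and 22533574 (hypoxia with T3), and 1 read stood for 0.0463, 0.0552 and 0.0425 CPM. All 8 neuronal marker genes were present and summed to between 5870 and 5939 CPM in the 3 libraries, but single markers differed: Tubb3, a neuronal tubulin, was at 1771, 873 and 739 CPM in the control, hypoxia and T3 libraries, and Nefl, a neurofilament gene, at 75.4, 171 and 185 CPM. The 8 astrocyte markers summed to between 507 and 542 CPM, with Gfap, the astrocyte filament gene, at 15.2, 23.7 and 13.9 CPM and Slc1a2, a glutamate transporter, at 177, 140 and 169 CPM. The 6 neural progenitor markers summed to 255, 223 and 240 CPM, and 3 of them were at least 1.5-fold lower in hypoxia than in control (13.8% of all genes compared were). Those were Hes5, a Notch target, at 10.2, 1.38 and 1.40 CPM, and the cell cycle genes Mki67, at 69.4, 34.8 and 41.8 CPM, and Top2a, at 57.0, 36.8 and 43.0 CPM. The other 3 were above control in hypoxia: Nes 1.29-fold (1.21 to 1.39), Sox2 1.24-fold (1.13 to 1.36) and Pax6 1.08-fold (0.827 to 1.41). Tubb3, Nefl, Slc1a2 and the progenitor markers are named here after their values were seen. The 7 microglial and the 6 endothelial and mural markers summed to at most 3.20 CPM in any library, and 1 or 2 of each list were at 0 in the hypoxic libraries. The 11 markers of the oligodendrocyte lineage, which also makes cholesterol, summed to 365 CPM in control, 217 CPM in hypoxia and 221 CPM with T3 added, and 9 of the 11 were lower in hypoxia than in control. In that list Olig2, a lineage transcription factor, was at 87.4, 41.4 and 42.8 CPM, and Mbp, a myelin protein gene, at 21.8, 24.0 and 21.3 CPM. The part of these shifts in the values below was not tested, and fewer cells of a type cannot be told apart from less RNA per cell.

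All 29 genes averaged 1 CPM or more over the libraries, as did 12692 of the 24054 genes in the table. The plot of counts by library shows a range from 8.34 CPM (Ebp in control) to 2795 CPM (Scd2 in hypoxia with T3), with the 3 libraries close together for most genes. Summed over the 29 genes, the level was 10158 CPM in control, 10879 CPM in hypoxia and 11869 CPM with T3 added. As a share of recovered reads this was 1.21% (exact 95% interval 1.21 to 1.22), 1.15% (1.15 to 1.16) and 1.24% (1.23 to 1.24). The CPM sum was lowest in control and the share of reads lowest in hypoxia. The share of reads is free of the authors' scaling. Under that scaling all genes together summed to 837997 CPM in control, 945496 CPM in hypoxia and 958205 CPM with T3 added. Intervals here and below are exact (Clopper-Pearson) and cover counting error only: without molecular identifiers, several reads can stem from 1 molecule.

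**Figure D1:**
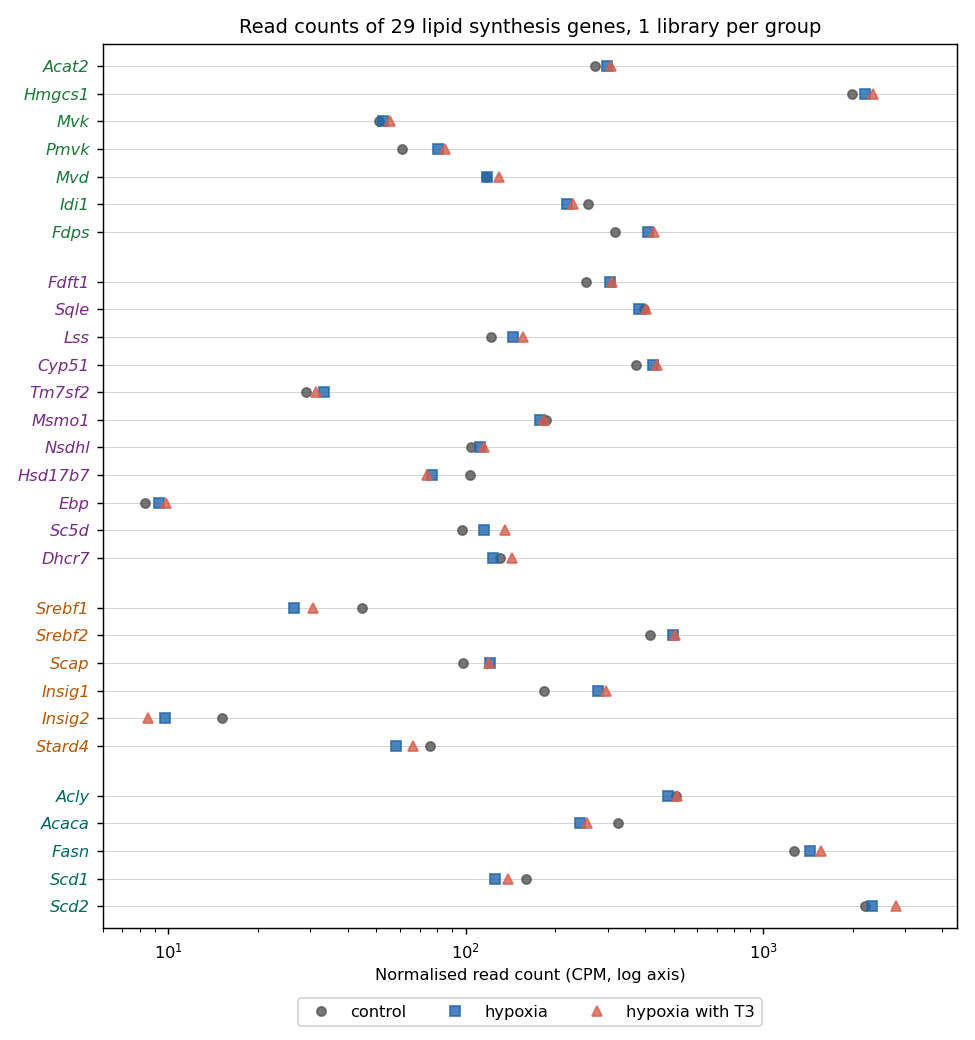
Normalised read count (CPM, log axis) of each of the 29 genes in control (circles), hypoxia (squares) and hypoxia with T3 (triangles), 1 library per group, with gene names coloured by role. The widest spacing is seen for Srebf1 (44.6, 26.3 and 30.5 CPM), Insig1 (183, 279 and 295 CPM) and Insig2 (15.2, 9.72 and 8.55 CPM).

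After 7 hours at 0.2% oxygen, none of the 29 genes was 2-fold or more apart from control on the log2(CPM + 1) scale, where 6.9% of all genes compared were. Insig1 alone was at least 1.5-fold higher in hypoxia (8.46% of all genes compared were), and 2 were at least 1.5-fold lower, Srebf1 and Insig2 (13.8% of all). The log2 ratio was above 0 for 18 of the 29 genes and below 0 for 11 (54.5% of all genes were above 0). The median of the 29 log2 ratios was 0.09, against 0.05 over all genes, and 16 of the 29 were above the median of all genes. Their interquartile range, -0.09 to 0.24, was narrower than that of all genes, -0.31 to 0.34, and 18 of the 29 were within 1.2-fold, as were 5122 of the 12692 genes. The direction of the small ratios depended on scaling. With libraries scaled to equal read totals in place of the authors' factors, the median over all genes was -0.10 and that of the 29 genes -0.08, 11 of the 29 were above 0, Insig1 was at 0.44 and no gene was 1.5-fold higher, and 4 were 1.5-fold lower, Hsd17b7 and Acaca in addition to Srebf1 and Insig2. Insig1 was also under 1.5-fold with median-of-ratios scaling, at 0.55, and Insig2 with 5 CPM added in place of 1, at -0.45.

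**Figure D2:**
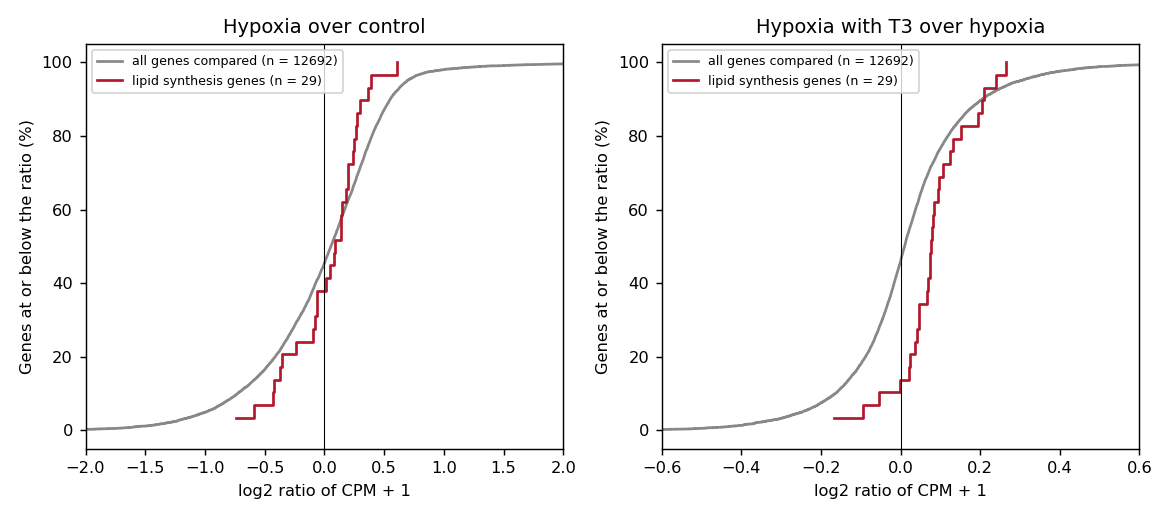
Cumulative share of genes (%) at or below each log2 ratio of CPM + 1, for all 12692 genes compared (grey) and the 29 lipid synthesis genes (red), hypoxia over control on the left and hypoxia with T3 over hypoxia on the right, on axes of different width. On the left the red steps are steeper than the grey curve and cross it near its middle, with medians of 0.09 and 0.05. On the right they lie mostly to its right, with medians of 0.08 and 0.01.

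In the mevalonate pathway, 6 of the 7 genes were higher in hypoxia than in control and none by 1.5-fold, with a median log2 ratio of 0.14, but with equal read totals Acat2, Hmgcs1, Mvk and Mvd were below 0. Acat2, the cytosolic thiolase that joins acetyl-CoA units, was at 272 CPM in control, 299 CPM in hypoxia and 309 CPM with T3 added. Hmgcs1, the HMG-CoA synthase that follows it, was at 1986, 2197 and 2345 CPM, 1.11-fold in hypoxia over control (1.09 to 1.12). Under the authors' scaling both were lowest in control and highest in hypoxia with T3. For Acat2 the interval of hypoxia with T3 over hypoxia included 1 (0.997 to 1.07). Pmvk, phosphomevalonate kinase, was at 61.0, 80.3 and 85.2 CPM, 1.32-fold in hypoxia (1.22 to 1.42). Fdps, farnesyl diphosphate synthase at the branch point to sterols and prenylated proteins, was at 318, 409 and 428 CPM, 1.29-fold in hypoxia (1.25 to 1.33). Those were the largest ratios of the pathway, above those of 79.5% and 77.1% of all genes compared. Mvk, mevalonate kinase, at 51.1, 52.9 and 55.7 CPM, and Mvd, the diphosphate decarboxylase, at 117, 118 and 129 CPM, had hypoxia over control intervals that included 1 (0.947 to 1.13 and 0.95 to 1.07). Idi1, isopentenyl diphosphate isomerase, was the only gene of the pathway that was lower in hypoxia under the authors' scaling, at 258, 218 and 229 CPM (0.847-fold, 0.813 to 0.882).

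Between squalene and cholesterol, 7 of the 11 genes were higher in hypoxia and 4 lower, none by 1.5-fold, with a median of 0.14, and with equal read totals Nsdhl and Ebp turned from above to below 0. Fdft1, squalene synthase, was at 253, 306 and 311 CPM in the control, hypoxia and T3 libraries (1.21-fold in hypoxia over control, 1.16 to 1.26). Lss, which closes the sterol rings, was at 121, 144 and 155 CPM (1.19-fold, 1.13 to 1.26). Cyp51, the lanosterol demethylase, was at 372, 427 and 438 CPM (1.15-fold, 1.11 to 1.18). These 3 genes of the early steps were lowest in control. Sqle, squalene epoxidase, a rate-limiting step that inserts oxygen into squalene, was at 398, 382 and 403 CPM (0.96-fold, 0.930 to 0.991), within 1.2-fold across all 3 libraries. Hsd17b7, the ketosterol reductase of the demethylation complex, differed most, at 104, 76.7 and 73.9 CPM, 0.740-fold in hypoxia (0.692 to 0.792). Its partners in that complex were closer to control: Msmo1, the methylsterol monooxygenase, was at 185, 178 and 183 CPM, and Nsdhl, the sterol dehydrogenase, at 104, 111 and 115 CPM. Hsd17b7 was thus lower in both hypoxic libraries than in control, while Msmo1 and Nsdhl stayed within 1.2-fold of it.

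Of the remaining late genes, Tm7sf2, a sterol reductase, was at 29.1, 33.5 and 31.3 CPM. Ebp, the sterol isomerase, was at 8.34, 9.28 and 9.82 CPM, from 180, 168 and 231 reads. A difference in Ebp was not detectable at this depth, since the interval for hypoxia over control ran from 0.896 to 1.38. Sc5d, lathosterol oxidase, was at 97.3, 115 and 136 CPM (1.18-fold in hypoxia over control, 1.11 to 1.26). Dhcr7, the reductase that makes cholesterol from its last precursor, was at 131, 123 and 143 CPM (0.945-fold, with the interval reaching almost to 1). Sc5d was lowest in control and highest in hypoxia with T3, and Dhcr7 was lowest in hypoxia.

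The genes whose enzymes use molecular oxygen did not stand together. Of Sqle, Cyp51, Msmo1, Sc5d, Scd1 and Scd2, 3 were higher and 3 lower in hypoxia than in control, none by 1.5-fold, with a median log2 ratio of 0.01. The highest of the 6 was Sc5d, at 0.24, and the lowest Scd1, a stearoyl-CoA desaturase, at -0.35.

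The regulatory genes had the widest spread, from -0.74 to 0.61, and held all 3 genes past 1.5-fold. Insig1, whose protein retains the SREBP escort complex and whose gene is itself an SREBP target, was at 183 CPM in control, 279 CPM in hypoxia and 295 CPM with T3 added, from 3939, 5052 and 6939 reads. It was 1.53-fold higher in hypoxia than in control (1.47 to 1.59), above 92.4% of all genes compared. Insig2, its paralog with the same retaining function, was at 15.2, 9.72 and 8.55 CPM, from 327, 176 and 201 reads, 0.641-fold in hypoxia (0.531 to 0.773). The paralogs therefore lay on opposite sides of control: Insig1 was higher and Insig2 lower in both hypoxic libraries, under each scaling tried. The ratio of Insig1 reads to Insig2 reads, which does not depend on scaling between libraries and is not corrected for gene length, was 12.05 in control (10.8 to 13.5), 28.7 in hypoxia (24.7 to 33.6) and 34.5 in hypoxia with T3 (30.002 to 39.9).

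Srebf1 encodes the SREBP that mainly drives fatty acid genes and Srebf2 the SREBP that mainly drives cholesterol genes. Srebf1 was at 44.6, 26.3 and 30.5 CPM in the control, hypoxia and T3 libraries, from 962, 477 and 718 reads. It was 0.591-fold in hypoxia over control (0.528 to 0.660), the lowest log2 ratio of the 29 genes at -0.74, and only 9.75% of all genes compared were lower. Srebf2 was at 415, 497 and 504 CPM, 1.199-fold in hypoxia (1.16 to 1.23). There were 9.30 reads of Srebf2 per Srebf1 read in control (8.70 to 9.95), 18.9 in hypoxia (17.2 to 20.7) and 16.5 in hypoxia with T3 (15.3 to 17.8). Scap, the escort, was at 97.6, 120 and 120 CPM, 1.23-fold in hypoxia (1.16 to 1.31). Stard4, a soluble sterol carrier and SREBP target, was at 75.7, 58.1 and 66.6 CPM, 0.768-fold in hypoxia (0.710 to 0.830). Over the 6 regulatory and transport genes, 3 were higher and 3 lower, with a median of -0.06.

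**Figure D3:**
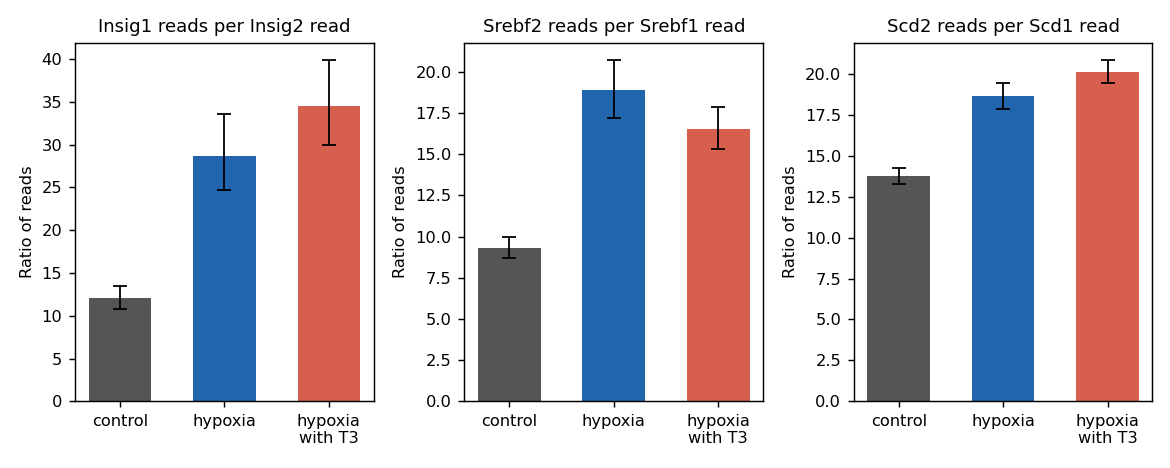
Ratio of reads between paired genes in each library, with exact 95% counting intervals as error bars and 1 library per group. Insig1 reads per Insig2 read were 12.05, 28.7 and 34.5, Srebf2 reads per Srebf1 read 9.30, 18.9 and 16.5, and Scd2 reads per Scd1 read 13.8, 18.6 and 20.1, so that in each pair the control bar is the lowest.

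In fatty acid synthesis, 2 of the 5 genes were higher and 3 lower in hypoxia, none by 1.5-fold, with a median of -0.09. Acly, ATP citrate lyase, which supplies cytosolic acetyl-CoA, was at 510 CPM in control, 479 CPM in hypoxia and 512 CPM with T3 added (0.938-fold in hypoxia over control, 0.912 to 0.965). Acaca, acetyl-CoA carboxylase, the committed step, was at 326, 243 and 256 CPM (0.745-fold, 0.717 to 0.774). Fasn, fatty acid synthase, which acts on the product of Acaca, was at 1268, 1436 and 1564 CPM (1.13-fold, 1.11 to 1.15). The successive enzymes Acaca and Fasn thus lay on opposite sides of control, although with equal read totals Fasn was at 0.01 on the log2 scale. The desaturases also differed from each other: Scd1 was at 160, 125 and 139 CPM (0.781-fold, 0.740 to 0.824), and Scd2, the main isoform of brain, at 2199, 2326 and 2795 CPM (1.06-fold, 1.04 to 1.07). There were 13.8 reads of Scd2 per Scd1 read in control (13.3 to 14.2), 18.6 in hypoxia (17.9 to 19.4) and 20.1 in hypoxia with T3 (19.4 to 20.8). With equal read totals the ratios of Scd2 and of 6 other genes changed sign, and those of Srebf1, Insig1, Insig2, Hsd17b7 and Acaca kept theirs.

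**Figure D4:**
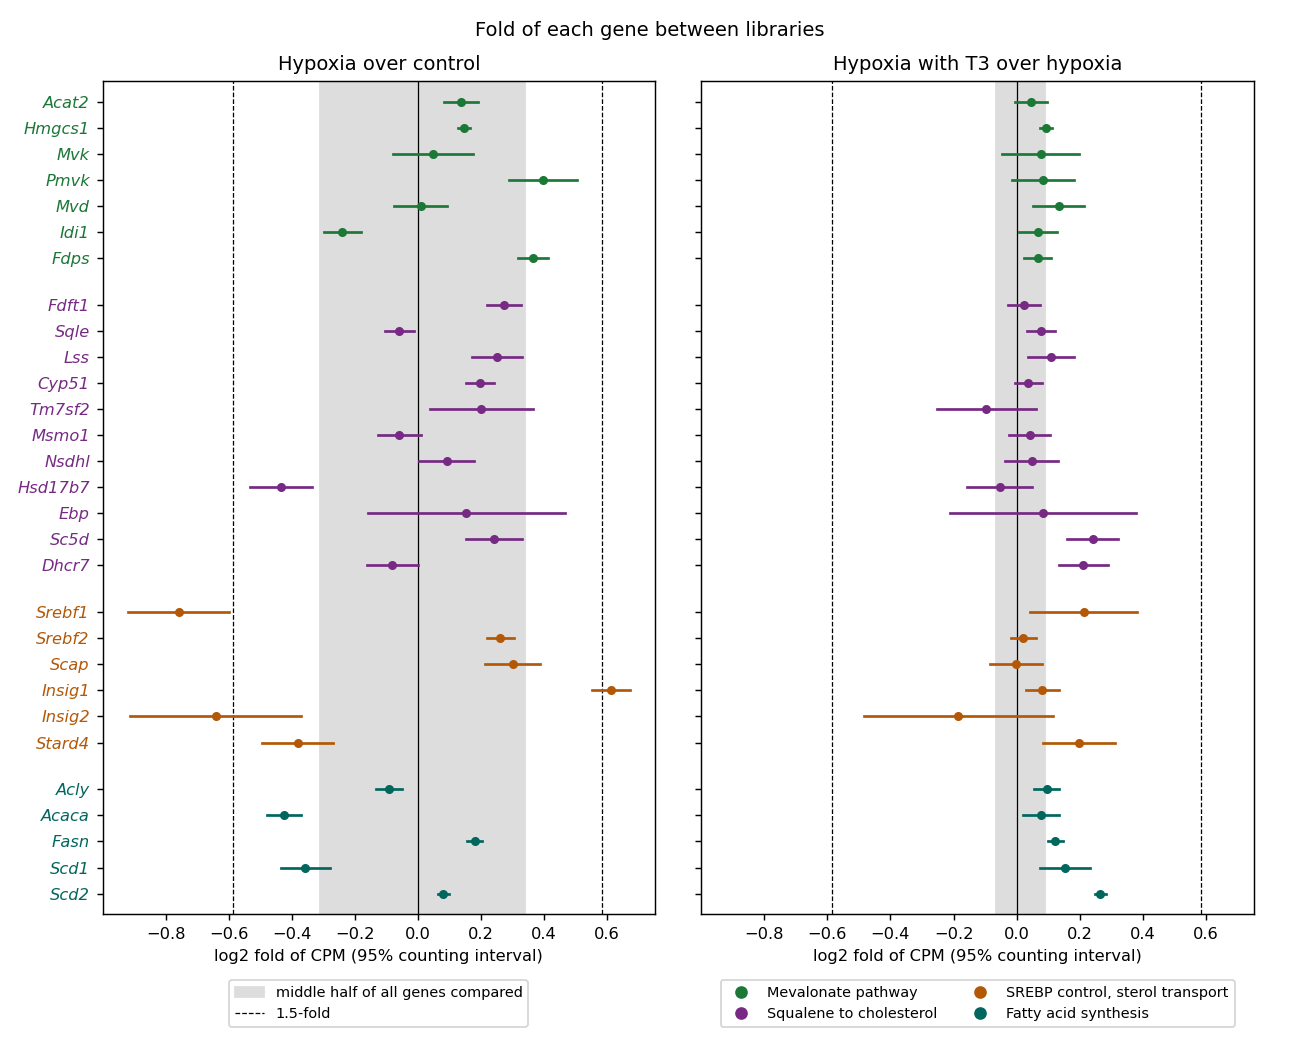
Log2 fold of CPM of each gene (points) with its exact 95% counting interval (lines), hypoxia over control on the left and hypoxia with T3 over hypoxia on the right, coloured by role. The shaded band is the interquartile range of all genes compared and the dashed lines mark 1.5-fold. On the left Insig1 is past the upper line and Srebf1 and Insig2 past the lower, and on the right no gene reaches a line and 25 of 29 lie above 0.

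The effect of T3 under hypoxia was examined by setting the 2 hypoxic libraries side by side. None of the 29 genes was 2-fold apart (0.189% of all genes compared were), and none was 1.5-fold higher or lower (0.717% and 0.276% of all). The log2 ratio was nevertheless above 0 for 25 of the 29 genes, against 54.1% of all genes. The median was 0.08 against 0.01 over all genes, and the interquartile range 0.04 to 0.12 against -0.06 to 0.09. By counting error alone, the interval lay above 1 for 16 genes, included 1 for 13 and lay below 1 for 0. The same count was not made over all genes, and intervals are narrower for genes with more reads, so the 16 have no background to be read against. With equal read totals 25 genes were still above 0 and the median was 0.06. All 7 mevalonate genes and all 5 fatty acid genes were above 0 (medians 0.07 and 0.12), as were 9 of the 11 genes from squalene to cholesterol (0.05) and 4 of the 6 regulatory and transport genes. The 4 genes below 0 were Tm7sf2, Hsd17b7, Scap and Insig2, and each of their intervals included 1. How far separate cultures of 1 group lie apart on this scale was not measured.

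The highest ratio with T3 was that of Scd2, 2326 CPM in hypoxia and 2795 CPM with T3, 1.202-fold (1.19 to 1.22), above 93.6% of all genes compared. Sc5d followed, at 115 and 136 CPM (1.18-fold, 1.12 to 1.25), and then Dhcr7, at 123 and 143 CPM (1.16-fold, 1.10 to 1.22), and Srebf1, at 26.3 and 30.5 CPM (1.16-fold, 1.03 to 1.30). The intervals of these 4 genes overlapped, so that no order among them was measured. Stard4 was 1.15-fold (1.06 to 1.24), Scd1 1.11-fold (1.05 to 1.17), Mvd 1.10-fold (1.04 to 1.16) and Fasn 1.09-fold (1.07 to 1.11). The 6 genes of oxygen-using enzymes were all above 0, with a median of 0.11. Insig2 was the lowest of the 29 genes, at 9.72 and 8.55 CPM, 0.879-fold (0.715 to 1.08).

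Hypoxia with T3 was also compared with control, with which the hypoxia library was compared above, so the 2 sets of ratios share the control library. None of the 29 genes was 2-fold apart (6.65% of all genes compared were). Insig1 was the only gene at least 1.5-fold higher, at 1.62-fold (1.55 to 1.68, against 8.73% of all genes called), and Insig2 the only gene at least 1.5-fold lower, at 0.564-fold (0.471 to 0.674, against 13.1%). With equal read totals Insig1 was at 0.50 on the log2 scale, under 1.5-fold, and with 5 CPM added in place of 1 Insig2 was at -0.57, likewise under it. Srebf1, which was past 1.5-fold in hypoxia alone, was at 0.685-fold (0.621 to 0.755), and with equal read totals it was again past it. Pmvk and Sc5d were each 1.40-fold (1.30 to 1.498 and 1.32 to 1.48), Fdps 1.35-fold (1.31 to 1.39) and Hsd17b7 0.713-fold (0.669 to 0.759). Of the 29 genes 21 were above 0 (56.4% of all), with a median of 0.14 against 0.08 over all genes, and 19 were above the median of all genes. With equal read totals 13 were above 0, and the medians were -0.05 and -0.10.

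Levels between genes were compared as CPM per kilobase of exons, using the union of all annotated exons of GENCODE M21 (mm10). Hmgcs1 (432, 478 and 510 CPM per kilobase in control, hypoxia and hypoxia with T3), Scd2 (402, 426 and 511) and Fasn (116, 131 and 143) took the highest places in control in that order, and Hmgcs1 and Scd2 were level with T3. Acat2 came next, at 107, 118 and 121 CPM per kilobase. The lowest places were those of Ebp (3.61, 4.02 and 4.25) and Insig2 (4.36, 2.80 and 2.46), of which Insig2 was the higher in control and Ebp the higher in the hypoxic libraries. Insig1 was at 59.0, 90.2 and 95.4 CPM per kilobase, and Srebf1 at 7.91, 4.68 and 5.42, against 57.7, 69.2 and 70.2 for Srebf2. Wide unions, such as the 10.8 kb of Lss, lower a gene on this scale.

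Gene span moved with the ratio of hypoxia to control over all genes and is given here for that reason. Across 12584 genes with an annotated span, Spearman's rho between span and log2 ratio was -0.51, as a description over genes of the same 2 libraries. Genes under 10 kb had a median log2 ratio of 0.33 and genes of 100 kb or more a median of -0.36. The 29 genes were mostly short, with a median span of 17.9 kb (5.55 to 272 kb) against 25.8 kb over all, and their rho was -0.13. In the class under 10 kb, the 6 members had a median of 0.17 and all genes one of 0.33. In the class of 10 to 30 kb, the 17 members had a median of 0.05 and all genes one of 0.18. In the class of 30 to 100 kb, the 5 members (Acly, Fdft1, Nsdhl, Scap and Srebf2) had a median of 0.26 and all genes one of -0.12. Insig1 (chromosome 5, 28071363 to 28078662, plus strand, mm10) spans 7.30 kb, where its log2 ratio of 0.61 is set against an upper quartile of 0.55 for genes under 10 kb. Insig2 (chromosome 1, 121304353 to 121332589, minus strand) spans 28.2 kb and Srebf1 (chromosome 11, 60199089 to 60222581, minus strand) 23.5 kb, and their ratios of -0.59 and -0.74 are set against a lower quartile of -0.09 in their class. Acaca (chromosome 11, 84129672 to 84401651, plus strand), at 272 kb the only member of 100 kb or more, had a ratio of -0.42, close to the median of its class. The part of span in these ratios was not tested.

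**Figure D5:**
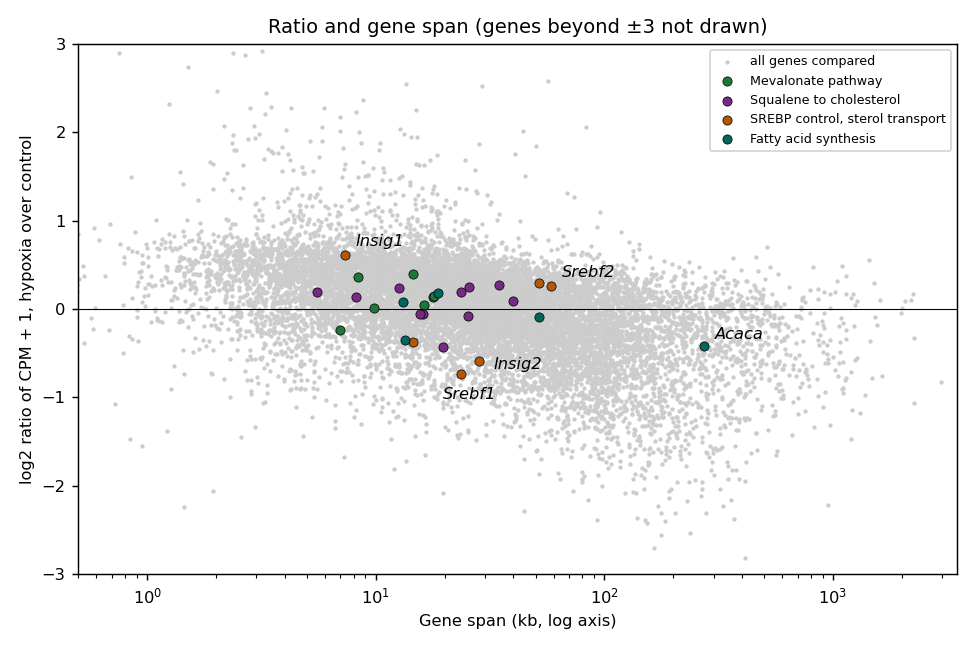
Log2 ratio of CPM + 1, hypoxia over control, against gene span (kb, log axis) for all genes compared (grey) and the 29 lipid synthesis genes (coloured by role). The grey cloud slopes downward, from a median of 0.33 under 10 kb to -0.36 at 100 kb and over, Insig1 lies near its upper part at 7.30 kb, Srebf1 and Insig2 in its lower part, and Acaca within the cloud at 272 kb.

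Genes beside the pathway were counted from 5 further lists, to be read against the shares of all genes compared in hypoxia over control: 6.9% at least 2-fold apart, 8.46% at least 1.5-fold higher and 13.8% at least 1.5-fold lower. In sterol synthesis and the isoprenoid branch, 0 of 10 genes were 1.5-fold apart in hypoxia over control (median log2 ratio -0.11). Aacs, acetoacetyl-CoA synthetase, was at 193, 154 and 161 CPM in the control, hypoxia and T3 libraries. In SREBP processing and sterol sensing, 1 of 12 genes was at least 2-fold lower and 3 at least 1.5-fold lower (13.8% of all genes), with none 1.5-fold higher (median -0.07). Rnf145, a sterol-responsive ubiquitin ligase of the endoplasmic reticulum that acts on Scap, was at 80.4, 28.3 and 29.2 CPM, 0.352-fold in hypoxia (0.318 to 0.389). Mbtps1, the site-1 protease that makes the earlier cut in SREBP, was at 66.4, 39.6 and 35.4 CPM, 0.596-fold in hypoxia (0.544 to 0.653). In hypoxia over control the log2 ratio of Rnf145, -1.47, was below those of all 29 genes, and that of Mbtps1, -0.73, was level with that of Srebf1.

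In cholesterol uptake, efflux and turnover, 3 of 15 genes exceeded control in hypoxia by 1.5-fold or more, 1 of them 2-fold, and 3 were at least 1.5-fold lower, against 8.46% and 13.8% of all genes (median 0.15). Mylip, a ubiquitin ligase and target of the sterol sensor LXR, was at 8.81, 21.8 and 23.7 CPM, 2.47-fold in hypoxia (2.07 to 2.95). Abca1, the cholesterol efflux pump and another LXR target, was at 40.4, 20.1 and 20.4 CPM, 0.498-fold (0.439 to 0.564). Mylip and Abca1, named for the size of their ratios, lay on opposite sides of control. LXR targets were not counted as a set, and LXR activity was not tested. Npc2, a lysosomal sterol carrier, was at 55.8, 86.9 and 91.1 CPM, and Lipa, the lysosomal lipase, at 6.07, 3.37 and 3.15 CPM.

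In fatty acid supply, elongation and desaturation, 2 of 20 genes were at least 2-fold below control in hypoxia and 4 at least 1.5-fold lower (13.8% of all genes), with none 1.5-fold higher (median 0.11). Elovl6, which elongates the product of Fasn, was at 154, 66.7 and 72.0 CPM, 0.435-fold (0.407 to 0.464). Thrsp, known in liver as a thyroid hormone responsive gene of lipid synthesis, was at 3.80, 0.773 and 1.19 CPM from 82, 14 and 28 reads, 0.203-fold in hypoxia (0.107 to 0.361). With T3 over hypoxia it was 1.54-fold with an interval of 0.784 to 3.16, so that a difference was not detectable at this depth. Hacd2, an elongation cycle dehydratase listed under its older symbol Ptplb, was at 20.6, 10.4 and 12.6 CPM, and Fads1, a desaturase of polyunsaturated fatty acids, at 213, 274 and 311 CPM. In fatty acid activation, storage and oxidation, 1 of 20 genes was 2-fold apart in hypoxia, Cpt2, a mitochondrial carnitine transferase, from 38, 6 and 24 reads (median -0.17). With T3 over hypoxia it was at 3.08-fold (1.23 to 9.21), the only gene of these lists past 1.5-fold on the log2(CPM + 1) scale. Cpt2 averaged 1.04 CPM, just over the filter of 1 CPM, and was at 0.331 CPM in hypoxia. Cpt2 and Thrsp were both below 1 CPM in hypoxia and passed that filter through the libraries where they were higher. No weight is put on the calls of these genes. Dgat2, which makes triglyceride, was at 26.1, 37.6 and 43.9 CPM, 1.44-fold in hypoxia (1.29 to 1.61).

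With T3 over hypoxia, where 54.1% of all genes were above 0, the lists differed in their counts. In fatty acid supply, elongation and desaturation 17 of 20 genes were above 0 (median 0.03), Thrsp among them, and 14 of 20 were above the median of all genes. In SREBP processing and sterol sensing 8 of 12 were above 0 (median 0.02) and 7 of 12 above the median of all genes. The counts of these lists were not recomputed under other scalings. In fatty acid activation, storage and oxidation 11 of 20 were above 0 (median 0.02), in sterol synthesis and the isoprenoid branch 5 of 10 (median 0.0031), and in cholesterol uptake, efflux and turnover 4 of 15 (median -0.08).

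The authors' deposited tables compare each hypoxic library with control over 13152 genes and include all 29 genes. At a false discovery rate below 0.05 the authors' deposited tables list 85 genes for hypoxia over control and 104 for hypoxia with T3 over control, and 0 of the 29 genes in either. The lowest p-value among the 29 in the authors' deposited tables was 0.187 for hypoxia, that of Srebf1, and 0.154 for hypoxia with T3, that of Insig2. The signed folds of the authors' deposited tables, where a negative value is minus the inverse of a fold below 1, were 1.46 and 1.54 for Insig1, -1.77 and -1.53 for Srebf1, and -1.63 and -1.86 for Insig2.

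Reads that more than 1 gene could claim bear on some values. For 6 of the 29 genes, at least 10% of the 31-base words of their transcripts also occur in another gene, and for none 50% or more. The largest share was that of Acat2, 43.7%, with its paralog Acat3, which was at 0.139, 0.773 and 0.425 CPM. Shares of Acaca (33.4%), Fdps (27.9%), Idi1 (18.8%), Fdft1 (14.3%) and Tm7sf2 (12.9%) were mostly with gene models or with an adjoining gene. Exons of 7 genes overlap an exon on the opposite strand, with the largest share in Fdft1 (18.3% of its exonic bases, with Ctsb), Scap (13.2%) and Hmgcs1 (12.1%). The kit marks strand, but whether the counting used it is not stated, so that these values are uncertain to that extent. Insig1 and Insig2 were in neither group, and Srebf1 had an overlap of 1.93%, with Rai1.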

How the data were processed

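RNA of 3 cultures, 1 library each, was prepared with a strand-marking KAPA kit, per the labels' protocols. RSEM 1.2.15, Bowtie2 2.1.0, bcl2fastq 2.17 and the build mm10 are named, with no roles, in the submitters' processing notes. The authors deposited a CPM table, with TMM scaling per its file name. Dividing each value by that of 1 read gave whole numbers within 0.01 throughout, and these are the reads used. The authors also deposited 2 comparisons with control that hold, per the file headers, signal values, a false discovery rate, a p-value and a signed fold ratio; the test behind them is not given in the sources used here.

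Log2 ratios used CPM + 1 over genes averaging 1 CPM or more, and printed folds are CPM ratios without the added value. A gene was called at 2-fold or 1.5-fold on the log2 scale. Each 95% interval is Clopper-Pearson's, from the reads of the libraries compared. Groups came from the treatment labels. The members and lists were chosen with earlier results of these data known. Named genes are all 29 members and, per further list and comparison, drawn from the 4 genes with the largest ratios; not every gene that rule picks is reported here. Genes compared were matched to GENCODE M21 (GRCm38, the assembly of mm10), 12098 by symbol and 486 by synonym. Another pseudocount, filter and scaling, and the authors' folds, were tried. The tools were scipy 1.17.1, numpy 2.4.6, matplotlib 3.10.9, pandas 2.3.3 and Python 3.11.15. The procedure was tested on simulated reads that held counting noise only, with no spread between cultures.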

Additional observations from a re-analysis of the deposited data

How the results depend on the processing

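The 29 genes held no 2-fold difference under any pseudocount, filter or scaling tried. No paired analysis was possible because each group has 1 library, and for the same reason no library could be left out. Of the counts over all and over the 29 genes and the medians of the 29 genes, 30 recomputed values moved, counts by over 1.5 times or medians by more than the typical counting error of a gene, and are given below; 110 did not. Of the ratios of single genes and the medians of all genes, 116 moved past counting error and 484 did not, and none past 1.5-fold changed sign. The median of all genes went from 0.05 to -0.10 for hypoxia over control with equal read totals, and from 0.08 to -0.10 for hypoxia with T3 over control, where median-of-ratios scaling gave 0.0038. For hypoxia over control, 252 genes were at least 2-fold higher and 624 lower. A pseudocount of 5 CPM gave 155 and 286 genes, with 1 of the 29 genes 1.5-fold lower. Equal read totals gave 192 higher and 974 lower, with 0 of the 29 genes 1.5-fold higher, 4 lower, 11 above 0 and a median of -0.082. Median-of-ratios scaling left 0 of the 29 genes 1.5-fold higher. The authors' deposited folds gave 1096 lower genes and 0 of the 29 genes 1.5-fold higher. For hypoxia with T3 over hypoxia, 16 genes were 2-fold higher and 8 lower. A pseudocount of 0.25 CPM gave 34 and 15, one of 5 CPM gave 8 and 1, and a mean of at least 5 CPM left 3 lower. For hypoxia with T3 over control, 262 genes were 2-fold higher and 582 lower. A pseudocount of 5 CPM gave 167 and 269, with 0 of the 29 genes 1.5-fold lower. Equal read totals gave 199 and 920, with 0 of the 29 genes 1.5-fold higher, 3 lower, 13 above 0 and a median of -0.050. Median-of-ratios scaling gave 2 of the 29 genes 1.5-fold lower and a median of 0.063. The authors' deposited folds gave 407 higher and 1044 lower genes, 2 of the 29 genes 1.5-fold lower and a median of 0.071. A stricter filter tests fewer genes and a larger pseudocount shrinks ratios of low counts; otherwise the cause was not tested. Among the 29 genes, Ebp and Insig2 rest on the fewest reads and have the widest intervals.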
